A study of Mus musculus with 8 samples.

Results

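This account covers 40 genes of DNA replication and S phase, measured in multipotent progenitors of mouse bone marrow. The genes were chosen by name. Of the 40, 39 had at least 1 probe set (a group of short array probes for a transcript) that the platform annotation gives to exactly 1 gene, out of 18193 genes with such a probe set. Chaf1a had none in that annotation and was not analysed here. Each gene's value comes from its brightest probe set, judged by the mean of the 8 arrays. Other probe sets are given beside it for many genes. Wild type mice (4 samples) were compared with FLT3-ITD mice (4 samples), whose FLT3, a growth factor receptor with kinase activity, carries an internal tandem duplication. All mice were female, on the C57BL6 background and 8 to 10 weeks old. In both genotypes the sort kept cells without lineage markers or CD150 that carried CD48, Sca-1 and c-Kit, which the labels call lympho-myeloid progenitors. How the FLT3-ITD allele is driven, its zygosity and whether mice were pooled are not given in the sources used here. Each genotype has replicates 1, 2 and 3 and a further sample numbered 1 with the tag 037, called replicate 037 here. Nothing in the labels ties replicates to separate mice, or tells whether replicate 037 repeats replicate 1. The p-values therefore reflect the spread among these 8 samples, and that spread may be technical.

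Before a cell copies its DNA, the origin recognition complex, CDC6 and CDT1 load the ring of MCM proteins onto origins in G1, and geminin, the product of Gmnn, blocks reloading later. At the start of S phase CDC45 and the GINS complex turn that ring into the active helicase, and polymerases follow with the sliding clamp PCNA, fed by enzymes that make deoxynucleotides. Many of these genes are transcribed together at the G1 to S boundary by E2F transcription factors, with cyclin E as a partner in the transition, and their RNA is widely used as a sign of how many cells in a population are replicating. Multipotent progenitors cycle more often than the most dormant stem cells, and FLT3 is a growth factor receptor of these progenitors.

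The genes were chosen by name and not by E2F sites, but many are transcribed by E2F factors, as given above. A high share of E2F sites is therefore not independent of the choice. RefSeq promoter windows of build GRCm38.p6, from 250 bases before to 50 bases after a gene's start, were found for 34 of the 40 genes. Each window was searched on both strands for 4 E2F words, TTTGGCGC, TTTCGCGC, TTTCCCGC and TTTGCCGC, and overlapping matches were kept. At least 1 word was found for 16 of the 34 genes (47.1%), and in 39% of their 41 windows. The share was 4.85% of the 8755 genes of the comparison that had a window, 2.6% of all 27025 genes with a window, and 2.26% of all windows. Words were present for 4 of 5 matched helicase genes of the Mcm2 to Mcm7 group and for 3 of 4 matched licensing genes. Related lists outside the set also stood above the genes tested, with 11 of 36 other replication factors (30.6%) and 5 of 18 other regulators of G1 and S (27.8%). The difference between these lists and the set was not tested. For the nucleotide supply genes it was 0 of 4, and for genes of G2 and mitosis 1 of 21. A match is a description of letters, not evidence of a bound site. Windows of a few genes are shown, Orc1 because it had the smallest p of the set, and Mcm5 and Mcm6 because they hold overlapping words. The window of Mcm8 is shown as well, a related gene outside the set that passed the test. Sequences run 5′ to 3′ on the gene's strand, and capitals mark the E2F words.
Orc1 (chr4:108579204-108579503, plus strand): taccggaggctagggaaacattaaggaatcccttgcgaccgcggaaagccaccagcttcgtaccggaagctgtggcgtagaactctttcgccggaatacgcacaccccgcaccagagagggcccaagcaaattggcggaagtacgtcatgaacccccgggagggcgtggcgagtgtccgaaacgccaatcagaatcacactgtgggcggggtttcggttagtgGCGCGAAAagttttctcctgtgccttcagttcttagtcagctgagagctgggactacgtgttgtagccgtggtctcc
Mcm5 (chr8:75109259-75109558, plus strand): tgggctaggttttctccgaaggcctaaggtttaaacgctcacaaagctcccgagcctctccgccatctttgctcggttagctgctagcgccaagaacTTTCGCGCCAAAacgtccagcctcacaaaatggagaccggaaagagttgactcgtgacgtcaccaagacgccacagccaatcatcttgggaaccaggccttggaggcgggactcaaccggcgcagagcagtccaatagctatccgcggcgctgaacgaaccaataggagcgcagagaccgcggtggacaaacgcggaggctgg
Mcm6 (chr1:128359656-128359955, minus strand): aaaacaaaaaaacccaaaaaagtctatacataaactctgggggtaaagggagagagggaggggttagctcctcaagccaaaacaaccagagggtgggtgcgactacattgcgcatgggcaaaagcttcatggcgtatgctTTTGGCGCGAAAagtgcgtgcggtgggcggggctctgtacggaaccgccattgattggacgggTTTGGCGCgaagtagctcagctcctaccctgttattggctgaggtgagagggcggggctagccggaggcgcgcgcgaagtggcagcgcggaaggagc
Mcm8 (chr2:132815891-132816190, plus strand): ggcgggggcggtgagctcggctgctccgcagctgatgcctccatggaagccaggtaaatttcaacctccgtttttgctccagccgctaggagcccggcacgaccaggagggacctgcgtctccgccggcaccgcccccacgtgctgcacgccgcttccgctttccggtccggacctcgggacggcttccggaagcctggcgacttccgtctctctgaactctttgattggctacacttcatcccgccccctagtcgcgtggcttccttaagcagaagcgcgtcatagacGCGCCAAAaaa

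**Figure D1:**
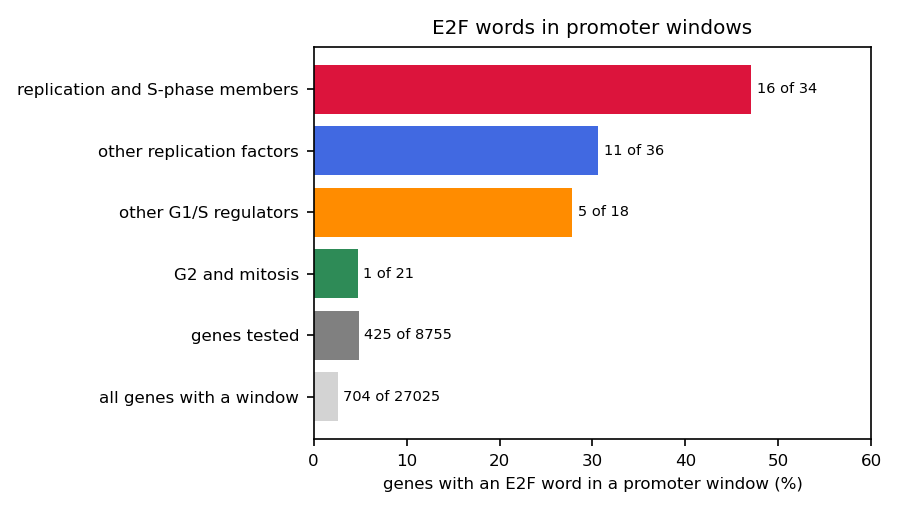
Share of genes (x axis, percent) with at least 1 E2F word in a promoter window, for the replication and S-phase genes, 3 lists of other cell cycle genes, the genes tested and all genes with a window; counts stand beside the bars. The replication genes stand at 47.1%, the genes tested at 4.85%.

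Array medians lay between 5.98 and 6.05 on the log2 scale, and pairs of arrays correlated at 0.948 to 0.981 over probe sets. FLT3-ITD replicate 1 stood apart, at 0.948 to 0.96 with the other 7 arrays. The gap between the 3′ and 5′ ends of Gapdh, which widens as RNA degrades, was largest in FLT3-ITD replicate 037, at 2.99 against 1.82 to 2.29 in the others. Kit, Cd48, Cd34, Ptprc and Flt3 were above the array median on all 8 arrays and Slamf1, which encodes CD150, on none; the gene of Sca-1, Ly6a, was not analysed here. Of these, Cd48 rose (9.76 to 10.11 in wild type and 10.82 to 11.08 in FLT3-ITD; limma adjusted p = 0.0074), and Flt3 fell (10.41 to 10.68 in wild type and 9.02 to 9.90 in FLT3-ITD; limma adjusted p = 0.0406). Of 5 B cell markers, Cd79a, Ms4a1 and Ebf1 were below the median on all 8 arrays, while Cd79b was above it on all 8 and Pax5 on 6. Of 7 T and NK cell markers, Cd3e, Cd3d, Cd3g and Ncr1 were below it on all 8, while Cd8a, Cd4 and Nkg7 were above it on all 8; none of the lymphoid genes tested passed. The mean log2 level of the 6 monocyte markers was 6.50 to 7.04 in wild type and 7.45 to 7.96 in FLT3-ITD, where Ccr2 rose by 3.62 and Csf1r, Cd68 and Lyz2 differed by 0.96, 0.26 and 0.16, short of the threshold; Adgre1 and Cx3cr1 were below the median on all 8 arrays. The 7 erythroid markers averaged 6.59 to 6.86 in wild type and 5.85 to 6.32 in FLT3-ITD, where Hbb-b2 and Slc4a1 fell (−2.76 and −2.10), Klf1 and Tfrc differed by −0.027 and 0.18, and Hba-a1, Epor and Gata1 were below the median on all 8 arrays. The 8 neutrophil markers averaged 8.06 to 9.40 in wild type and 6.89 to 9.35 in FLT3-ITD, overlapping, with none past the test; Ngp and S100a8 differed by −2.39 and −2.07, and Elane by 1.49. The 6 megakaryocyte markers averaged 5.51 to 6.07 in wild type and 5.52 to 5.56 in FLT3-ITD. The 2 tested, Itga2b and Gp9, differed by −0.18 and −0.026, neither past the test. Pf4 read 8.09 in wild type replicate 2 and 4.70 to 5.30 on the other arrays. Gp1bb, above the median on 1 array, read 5.82 to 6.09 in wild type and 5.41 to 5.79 in FLT3-ITD. Ppbp and Vwf were below the median on all 8 arrays. The dendritic cell markers are given beside Mcm8. The part of these lists in the values of the replication genes was not tested. These are bulk samples, so fewer replicating cells and less RNA per cell cannot be told apart, and RMA would remove a change in total RNA.

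None of the 39 replication and S-phase genes passed the test between FLT3-ITD and wild type. The test was limma's moderated test over 10763 genes, with a Benjamini-Hochberg adjusted p under 0.05 as the threshold; 0.604% of all genes tested passed it, 0.427% as higher and 0.177% as lower. Adjusted p ranged from 0.517 to 0.985 over the 39 genes. At an unadjusted p under 0.05 there was 1 higher gene, Orc1, and 0 lower ones, against 9.58% of all genes tested (5.74% higher and 3.84% lower). Differences are log2 values of FLT3-ITD less those of wild type, and they were positive for 20 genes and negative for 19, while 53.7% of all genes tested were positive. Their median was 0.020, against 0.020 over all genes tested, and the median size of a difference was 0.13 against 0.16.

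How far a difference could still reach is given by its 95% interval from the fit. That interval stayed within a 2-fold change either way (within 1 on the log2 scale) for 34 of the 39 genes, or 87.2%, against 81.8% of all genes tested. The 5 genes whose interval crossed a 2-fold change were Orc1, Cdt1, Pole, Ccne2 and E2f7, all crossing it upward. The lowest bound of any gene was −0.82, for Mcm2. A 2-fold fall was thus outside the interval of each of the 39 genes in the probe sets used. Intervals were not computed for the other probe sets. Among those, the E2f2 probe set past the filter differed by −0.53 ± 0.33 (SE), so the statement does not extend to it. With each gene set to its mean over the 8 arrays, the median over the 39 genes ranged from −0.054 to 0.11 in wild type and from −0.085 to 0.028 in FLT3-ITD. The genotypes overlapped on this measure. The lowest array was FLT3-ITD replicate 1 and the highest was wild type replicate 1.

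**Figure D2:**
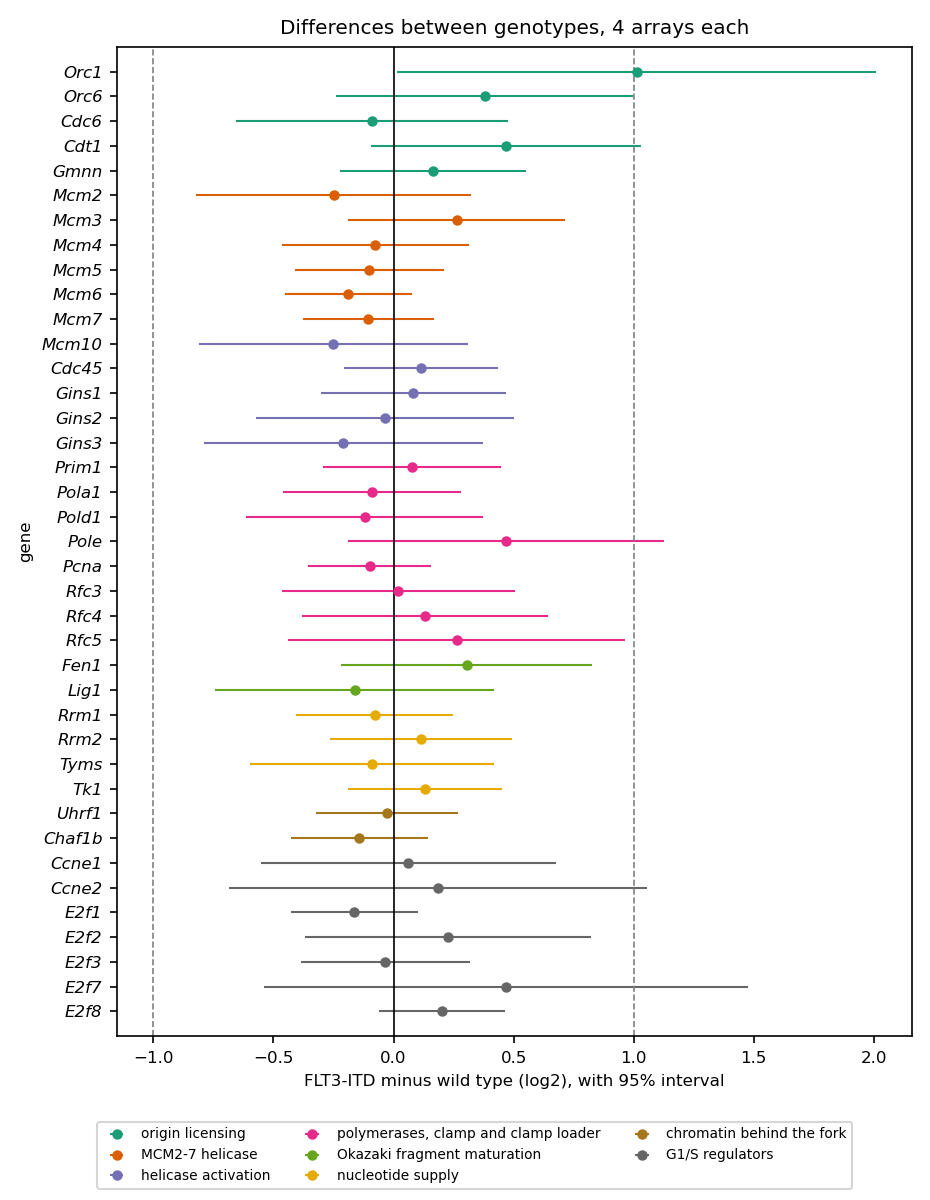
Difference FLT3-ITD minus wild type (x axis, log2) for each of 39 genes (y axis), with 95% intervals from limma and colours for the gene's role; dashed lines mark a 2-fold change. The interval of Orc1 runs from 0.015 to 2.01, and those of the other 38 genes include 0.

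Of the genes that license origins, 4 of 5 had a positive difference and none passed the test; their median was 0.38. Orc1 encodes the largest subunit of the origin recognition complex and is itself made around the G1 to S boundary. It read 6.29, 5.63, 7.54 and 7.48 in wild type replicates 1, 2, 3 and 037 and 8.44, 7.55, 7.51 and 7.48 in the FLT3-ITD replicates in the same order (log2). Wild type replicates 1 and 2 were low, while wild type replicates 3 and 037 lay among the FLT3-ITD values, so the genotypes overlapped. The difference was 1.01 ± 0.44 (SE; 95% interval 0.015 to 2.01; limma adjusted p = 0.517), and the exact two-sided permutation p was 0.143, with 4 samples in each genotype. Orc1 was at or below the median on 1 array, wild type replicate 2, and its other probe set, below the filter, differed by 0.25. Without FLT3-ITD replicate 1 the difference was 0.78 (limma adjusted p = 0.662).

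Cdt1, the loading factor for the helicase, had a wide spread. Its probe set read 10.30, 10.56, 10.48 and 9.49 in wild type and 10.98, 10.55, 10.40 and 10.78 in FLT3-ITD, a difference of 0.47 ± 0.25 (SE; limma adjusted p = 0.612). Wild type replicate 037 was the lowest of the 8 and the other 3 wild type values overlapped FLT3-ITD; without it the difference was 0.23. The other probe set of Cdt1 past the filter pointed the other way, at −0.14. Orc6, another origin recognition subunit, differed by 0.38 ± 0.27, and FLT3-ITD replicate 1 read 9.69 against 8.52 to 8.71 in the other FLT3-ITD arrays; without it Orc6 differed by 0.11. Cdc6, the loading ATPase, and Gmnn, the inhibitor of reloading, differed by −0.089 and 0.16. Without FLT3-ITD replicate 1 the median of the 5 genes was 0.19, with 4 of 5 positive, and without wild type replicate 037 it was 0.23. With each gene as the mean of all its probe sets it was 0.20.

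Of the 6 subunits of the replicative helicase, 5 had a small negative difference, and none passed the test. Their median was −0.10, and all 6 intervals lay within a 2-fold change. That tally depended on the probe sets: with the mean of all probe sets 3 were positive and 3 negative, with a median of −0.027. That mean includes probe sets below the filter on dim probe sets. Mcm5 was positive in it only through a dim probe set at 0.41, while its probe sets past the filter stood at −0.10 and −0.17. Leaving out single samples moved the median from −0.19 (without FLT3-ITD replicate 037) to −0.043 (without FLT3-ITD replicate 2), and it was −0.052 without wild type replicate 1. Mcm6 read 12.48, 12.27, 12.35 and 12.34 in wild type and 12.13, 12.02, 12.24 and 12.29 in FLT3-ITD. All 4 wild type values stood above 12.29 except replicate 2, so the genotypes overlapped narrowly. The difference was −0.19 ± 0.12 (SE; 95% interval −0.45 to 0.078; limma adjusted p = 0.677), with −0.27 in its other probe set past the filter.

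Mcm2 differed by −0.25 ± 0.25, Mcm4 by −0.076 ± 0.17, Mcm5 by −0.10 ± 0.14 and Mcm7 by −0.10 ± 0.12, with adjusted p of 0.815 or more by limma. Mcm4 read 10.97, 10.66, 10.81 and 10.58 in wild type and 10.41, 10.50, 10.73 and 11.07 in FLT3-ITD. Mcm7 read 12.10, 11.99, 12.14 and 12.04 in wild type and 11.86, 11.83, 12.00 and 12.15 in FLT3-ITD. Both overlapped between genotypes. Mcm7 was read by 4 probe sets, of which 3 were negative and 1 stood at 0.024; Mcm4 had another at 0.17. Mcm3 was the positive member, with 11.09, 10.69, 10.81 and 10.73 in wild type and 11.62, 10.76, 10.90 and 11.07 in FLT3-ITD, a difference of 0.26 ± 0.20 (SE; limma adjusted p = 0.738). FLT3-ITD replicate 1 was the highest of the 8 arrays for Mcm3. Its 5 probe sets split by signal: 3 bright ones were positive, at 0.22 to 0.37, and 2 dimmer ones negative, at −0.20 and −0.21. Without FLT3-ITD replicate 1 Mcm4 differed by 0.013, and the median of the 6 subunits was −0.076.

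Factors that activate the helicase were likewise not separated. Of Mcm10, Cdc45, Gins1, Gins2 and Gins3, 2 were positive and 3 negative, with a median of −0.036. The sign of that median turned with the mean of all probe sets (0.017) and without wild type replicate 3 (0.0076) or FLT3-ITD replicate 1, 3 or 037 (0.042, 0.027 and 0.035). Mcm10, which helps to open the origin, read 8.92, 7.96, 8.67 and 8.54 in wild type and 7.75, 8.42, 8.62 and 8.30 in FLT3-ITD; the difference was −0.25 ± 0.25 (SE; limma adjusted p = 0.812), with −0.18 and −0.015 in its other probe sets. The ranges overlapped. Gins2, a subunit of the GINS complex, read 10.17, 9.94, 10.21 and 9.99 in wild type and 10.79, 9.81, 9.85 and 9.71 in FLT3-ITD. Here FLT3-ITD replicate 1 was far above the rest, while the other 3 FLT3-ITD values were below all 4 of wild type, with a mean difference of −0.036 ± 0.24. Without that array Gins2 differed by −0.29 (limma adjusted p = 0.574). The other probe set of Gins2 differed by 0.23. It read 9.70, 9.05, 9.40 and 9.37 in wild type and 10.24, 9.39, 9.33 and 9.49 in FLT3-ITD. There FLT3-ITD replicate 1 was again the highest array, but replicates 2, 3 and 037 lay within the wild type range. Gins3 went the other way, with FLT3-ITD replicate 1 at 6.45 as the lowest array and wild type replicate 1 at 7.77 as the highest. Cdc45, which travels with the helicase, read 6.87, 6.66, 6.90 and 6.81 in wild type and 6.84, 7.03, 6.67 and 7.17 in FLT3-ITD (0.12 ± 0.14; limma adjusted p = 0.845), and its probe sets differed by 0.12 and −0.080. Gins1 differed by 0.083, with 0.13 in its other probe set.

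The polymerases, the sliding clamp and the clamp loader gave 5 positive and 3 negative differences, with a median of 0.048 and none past the test. The median turned negative, to −0.050 and −0.033, on leaving out wild type replicate 1 or 037, and to −0.026 on leaving out FLT3-ITD replicate 3. It was 0.11 without FLT3-ITD replicate 037. Pcna, the clamp that holds polymerases on DNA, read 12.15, 11.97, 12.18 and 12.10 in wild type and 11.97, 12.08, 12.06 and 11.90 in FLT3-ITD. The difference was −0.10 ± 0.11 (SE; 95% interval −0.36 to 0.16; limma adjusted p = 0.832). Pole, the catalytic subunit of the leading strand polymerase, had the largest positive value of this group. It read 8.73, 7.97, 8.42 and 8.00 in wild type and 8.14, 8.42, 9.17 and 9.27 in FLT3-ITD, with FLT3-ITD replicates 3 and 037 above all 4 wild type arrays and replicates 1 and 2 among them. The difference was 0.47 ± 0.29 (SE; limma adjusted p = 0.677). Without FLT3-ITD replicate 1 it was 0.67 and that of Rfc5, a clamp loader subunit, 0.58, with adjusted p of 0.502 and 0.39 by limma. Both were then at an unadjusted p under 0.05, which 9.58% of all genes tested reached with all 8 arrays. That share was not computed without FLT3-ITD replicate 1.

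With all 8 arrays Rfc5 ranged over 8.03 to 8.67 in wild type and 7.54 to 8.99 in FLT3-ITD and differed by 0.26 ± 0.31. The clamp loader genes Rfc3 and Rfc4 differed by 0.020 and 0.13 in the probe sets used and by 0.31 and 0.60 in their others. The other probe set of Rfc4 read 8.03, 7.41, 7.43 and 7.21 in wild type and 8.32, 8.17, 7.71 and 8.28 in FLT3-ITD. There 3 FLT3-ITD arrays lay above all wild type values, but the adjusted p was 0.44 by limma over single probe sets. Prim1, which encodes the primase that starts each strand, read 9.36, 9.73, 10.01 and 9.79 in wild type and 9.91, 9.85, 9.88 and 9.56 in FLT3-ITD. It differed by 0.076 ± 0.16 (limma adjusted p = 0.927), with −0.082 in its other probe set. Pola1, the polymerase that extends the primer, differed by −0.090 ± 0.16, and Pold1, the lagging strand polymerase, by −0.12 ± 0.22. For Pold1 FLT3-ITD replicate 1 was low, at 9.87 against 10.64 to 10.76 in the other FLT3-ITD arrays, and without it the difference was 0.093.

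Fen1 and Lig1 finish lagging strand fragments, by trimming the flap and sealing the nick. Fen1 read 11.80, 11.37, 11.34 and 12.12 in wild type and 11.61, 11.92, 11.89 and 12.43 in FLT3-ITD, a difference of 0.30 ± 0.23 (SE; limma adjusted p = 0.738), with 0.25 in its other probe set. In both genotypes replicate 037 was the highest, and the ranges overlapped. Lig1 differed by −0.16 ± 0.26, and wild type replicate 037 was its highest array, at 11.11 against 10.00 to 10.55 in the other wild type arrays. The RNA quality value above was highest in FLT3-ITD replicate 037; its part in these readings was not tested.

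Genes that supply deoxynucleotides gave 2 positive and 2 negative differences and a median of 0.018, whose sign depended on single samples (−0.022 without FLT3-ITD replicate 3 and 0.11 without wild type replicate 1). Rrm2, the regulated subunit of ribonucleotide reductase, read 11.06, 11.20, 11.23 and 10.76 in wild type and 10.83, 11.28, 11.40 and 11.19 in FLT3-ITD, a difference of 0.11 ± 0.17 (SE; limma adjusted p = 0.875). Its other probe sets differed by 0.050 and 0.29. In the last of these all 4 FLT3-ITD values, 9.13 to 9.45, lay above all 4 wild type values, 8.88 to 9.11 (limma adjusted p over probe sets = 0.573). Tk1, thymidine kinase, read 8.12, 8.34, 7.94 and 8.22 in wild type and 8.40, 8.04, 8.41 and 8.27 in FLT3-ITD, a difference of 0.13 ± 0.14 (limma adjusted p = 0.826). Rrm1, the large reductase subunit, differed by −0.078 ± 0.14. Tyms, thymidylate synthase, read 8.17, 7.04, 7.35 and 7.64 in wild type and 7.39, 7.41, 7.43 and 7.59 in FLT3-ITD. Its difference was −0.090 ± 0.22 (limma adjusted p = 0.938), with 0.34 in the other probe set of Tyms past the filter.

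Uhrf1, which brings DNA methyltransferase to newly copied DNA, read 9.87, 9.48, 9.69 and 9.59 in wild type and 9.50, 9.70, 9.76 and 9.57 in FLT3-ITD. The values interleaved, with a difference of −0.026 ± 0.13 (SE; 95% interval −0.32 to 0.27; limma adjusted p = 0.971), and its other probe set stood at 0.17. Chaf1b, a subunit of the chromatin assembly factor that deposits histones behind the fork, read 8.85, 8.56, 8.54 and 8.72 in wild type and 8.36, 8.55, 8.60 and 8.58 in FLT3-ITD, a difference of −0.14 ± 0.13 (limma adjusted p = 0.784). Its genotypes overlapped as well.

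Among the regulators of the G1 to S transition were the only members of the set whose genotypes did not overlap, E2f1 and E2f8, while 6.22% of all genes tested did not overlap (3.77% higher and 2.44% lower). E2f1, the founding activator of the family, read 8.55, 8.29, 8.28 and 8.26 in wild type and 8.17, 8.13, 8.18 and 8.24 in FLT3-ITD. Every FLT3-ITD value was below every wild type value, by a narrow margin. The exact permutation p was 0.0286, the smallest possible with 4 against 4. Any gene without overlap has that p, so it only restates the separation. The difference was −0.16 ± 0.12 (SE, limma adjusted p = 0.732). Its other probe sets differed by −0.35 and −0.010, the former again without overlap, at 8.23 to 8.72 in wild type and 7.88 to 8.21 in FLT3-ITD (limma adjusted p over probe sets = 0.549). All 3 E2f1 probe sets were lower, and none passed the test.

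E2f8, an atypical family member that represses E2F targets, showed the opposite order. It read 9.49, 9.41, 9.43 and 9.29 in wild type and 9.51, 9.76, 9.60 and 9.55 in FLT3-ITD. The exact permutation p was 0.0286, as for any gene without overlap. The difference was 0.20 ± 0.12 (SE, limma adjusted p = 0.645). Its other probe set, however, differed by −0.39 (limma adjusted p over probe sets = 0.635), with values of 8.91 to 9.74 in wild type and 8.64 to 9.20 in FLT3-ITD. The direction for E2f8 therefore depended on the probe set. E2f2, another activator, read 6.90, 6.78, 6.51 and 7.41 in wild type and 7.57, 7.47, 6.71 and 6.75 in FLT3-ITD (0.23 ± 0.26; limma adjusted p = 0.836), with −0.53 in its other probe set. E2f3, also an activator, read 9.35, 8.97, 8.87 and 8.70 and 9.06, 8.90, 8.86 and 8.94 (−0.035 ± 0.16; limma adjusted p = 0.966), with 0.037 in its other probe set. Both overlapped between genotypes. E2f7, the partner of E2f8, differed by 0.47 ± 0.45 and spread from 5.13 in wild type replicate 037 to 7.71 in FLT3-ITD replicate 1, without which the difference was 0.092.

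Cyclin E is encoded by Ccne1 and Ccne2. Ccne1 read 7.71, 7.16, 7.40 and 7.60 in wild type and 7.25, 8.37, 7.25 and 7.24 in FLT3-ITD, where replicate 2 stood alone. It differed by 0.062 ± 0.27 (limma adjusted p = 0.965), or −0.22 without that array; its other probe set differed by −0.12. Ccne2 differed by 0.18 ± 0.38, with FLT3-ITD replicate 1 highest at 7.46 and a difference of −0.23 without it. Ccne2 was the gene nearest the filter on dim probe sets, above the array median on exactly 4 arrays, which is the minimum. E2f7 was above it on 6 arrays, Orc1 on 7, and the other 36 genes on all 8. Over the 7 regulators the median was 0.18, with 5 positive. With the mean of all probe sets the direction turned, to 3 positive, 4 negative and a median of −0.027. The median was 0.078 and 0.11 without FLT3-ITD replicate 1 or 2, and 0.096 and 0.11 without wild type replicate 3 or 037.

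**Figure D3:**
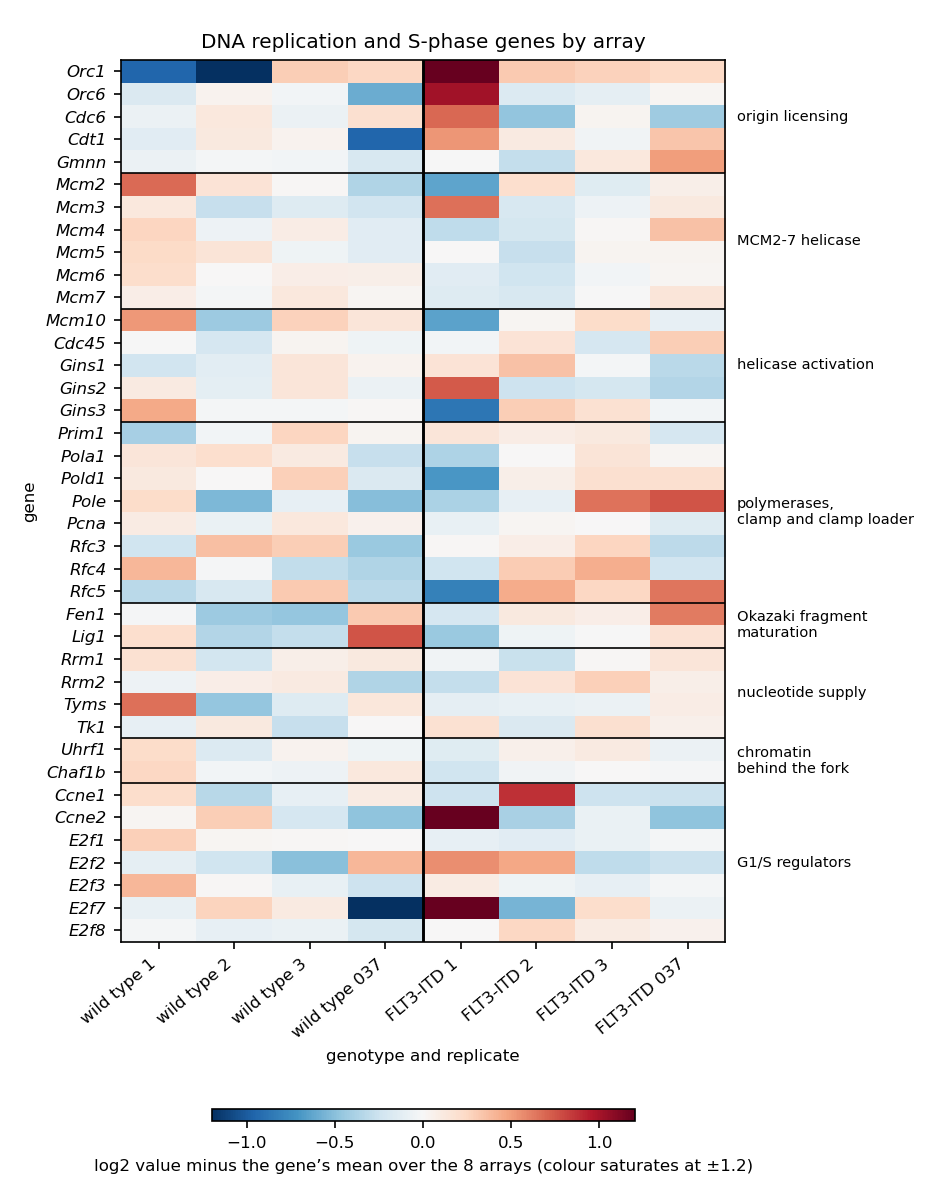
Heat map of 39 genes (rows, grouped by role) on 8 arrays (columns; the vertical line separates the genotypes), coloured by the log2 value minus the gene's mean over the 8 arrays. FLT3-ITD replicate 1 holds many of the strongest colours in both directions, and it was the highest or lowest array for 18 of the 39 genes.

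FLT3-ITD replicate 1 was the highest of the 8 arrays for 9 genes and the lowest for 9, or 46.2% of the 39 in all. Over all genes tested it was an extreme for 39.8%, the largest share of any array there too. Its median over the genes, relative to each gene's mean, was 0.69 for origin licensing and −0.31 for the polymerase group, so that array was high in some roles and low in others. FLT3-ITD replicate 3 was an extreme for 3 genes (7.69%). Over all genes tested it was an extreme for 16%, the smallest share of any array there too. Without FLT3-ITD replicate 1, 24 of 39 genes were positive with a median of 0.040, and again none passed (limma adjusted p of 0.39 or more).

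The 39 genes had 82 probe sets, of which 73 passed the filter on dim probe sets. Tested on their own among 19211 probe sets, none of the 73 passed the limma test (0.416% of all did), and 3 had an unadjusted p under 0.05, 1 each of Orc1, Rfc4 and E2f1 (9.06% of all did). Differences were positive for 34 and negative for 39 probe sets, with a median of −0.026. Of the 26 genes with several probe sets past the filter, 8 were negative in all of them, 5 were positive in all, and 13 had both signs. The 8 were Mcm2, Mcm5, Mcm6, Mcm10, Gins3, Pold1, Rrm1 and E2f1. The 5 were Gins1, Rfc3, Rfc4, Fen1 and Rrm2. Of the probe sets used, 10 are of types that the array design marks as able to match other transcripts, among them those of Mcm2, Mcm4, Mcm5, Mcm6 and Mcm7.

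**Figure D4:**
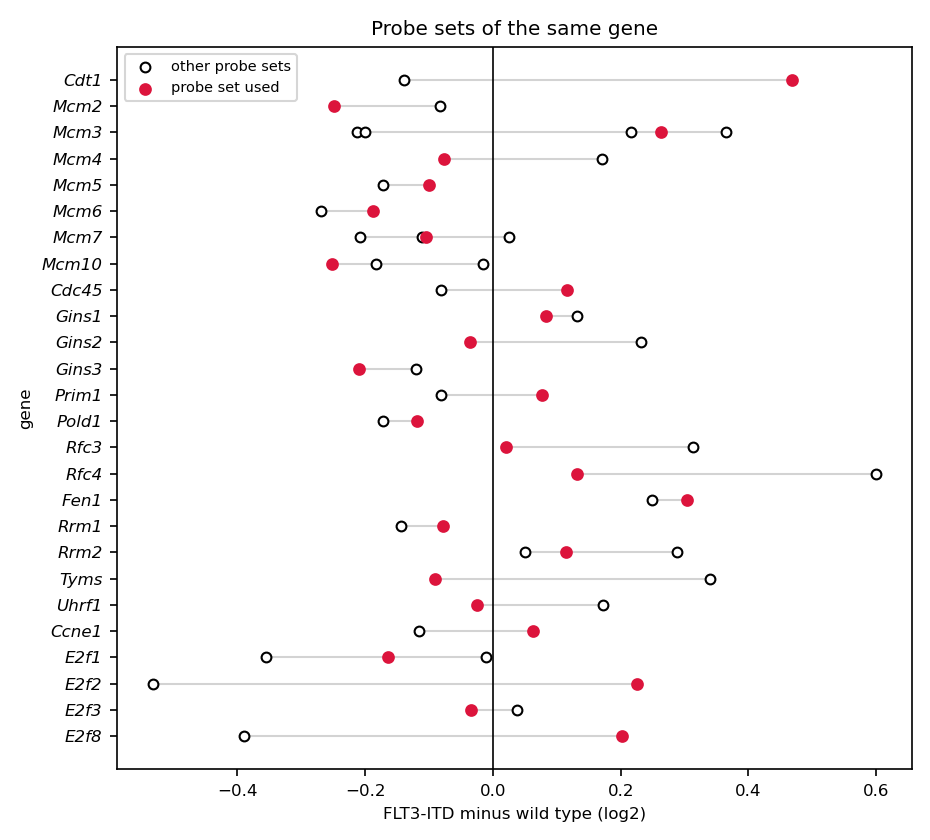
Difference FLT3-ITD minus wild type (x axis, log2) of each probe set past the filter for the 26 genes with more than 1; filled points are the probe sets used for the gene and open points its others. The points of 13 genes lie on both sides of 0, with E2f2, E2f8 and Cdt1 spread widely.

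Other genes of the pathway, listed by role and outside the set, gave 1 call. Of 47 other replication factors 45 were tested, with 26 positive and 19 negative differences and a median of 0.032, or −0.011 without wild type replicate 037; 1 rose and none fell. The gene that rose was Mcm8, a relative of the replicative MCM genes that acts mainly in recombination repair. It read 6.42, 6.49, 6.48 and 6.62 in wild type and 7.28, 6.99, 7.22 and 7.36 in FLT3-ITD, so that every FLT3-ITD value was above every wild type value. The exact permutation p was 0.0286, as for any gene without overlap. The difference was 0.71 ± 0.12 (SE), a 1.63-fold rise, with a limma adjusted p of 0.0499. That call lay at the threshold and was lost on leaving out any 1 of the 8 samples, with adjusted p of 0.0715 to 0.177 and differences of 0.66 to 0.78. Some dendritic cell markers moved with genotype in the same samples, and 5 of the 6 tested rose. These were Cd74, H2-Aa, H2-Ab1, H2-Eb1 and Irf8, by 4.12, 3.13, 3.58, 4.02 and 2.64. Siglech differed by −0.023, and Itgax, above the median on 2 arrays, was not tested. The mean level of the 7 markers was 6.74 to 7.01 in wild type and 9.14 to 9.92 in FLT3-ITD. Their part in the Mcm8 value was not tested. Next by p were Dna2, a nuclease and helicase, at 0.53 ± 0.22, and Pola2, the accessory subunit of polymerase alpha, at −0.26 ± 0.13, neither past the test.

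Of 26 other regulators of G1 and S, 22 were tested and none passed; 15 were negative, with a median of −0.13, or −0.082 without FLT3-ITD replicate 1 and −0.069 without wild type replicate 037. E2f6, a repressor of the E2F family, read 8.46, 8.23, 8.31 and 8.51 in wild type and 7.24, 7.61, 7.84 and 7.93 in FLT3-ITD, without overlap (difference −0.72 ± 0.17; limma adjusted p = 0.147). Its other probe set past the filter stood at 0.17. Tfdp2, a dimer partner of E2F proteins, read −0.63 ± 0.18 (limma adjusted p = 0.264), and Cdkn1b, the cyclin kinase inhibitor p27, −0.43 ± 0.19 (limma adjusted p = 0.52). Genes of G2 and mitosis, 25 tested of 26, had 16 positive and 9 negative differences and a median of 0.13, none past the test. That median was 0.045 without wild type replicate 037, 0.063 without FLT3-ITD replicate 3, 0.024 without both samples tagged 037 and 0.037 with the mean of all probe sets. Ttk, a spindle checkpoint kinase, ranged over 7.45 to 8.03 in wild type and 8.26 to 8.39 in FLT3-ITD, without overlap, and differed by 0.56 ± 0.14 (limma adjusted p = 0.187). Plk1, a mitotic kinase, read 0.53 ± 0.18, and Tpx2, a spindle assembly factor, −0.41 ± 0.17. Replication genes with an E2F word had a median difference of −0.062 (16 genes), and those with a window but no word 0.076 (17 genes); the ranges were −0.21 to 1.01 and −0.25 to 0.38.

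**Figure D5:**
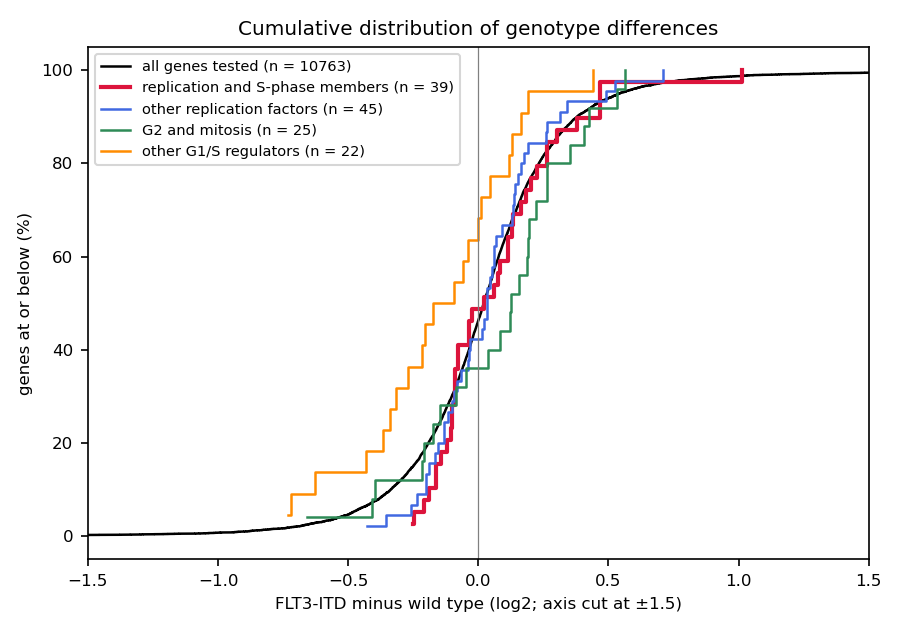
Cumulative share of genes (y axis, percent) by difference FLT3-ITD minus wild type (x axis, log2) for the 39 replication and S-phase genes, 3 lists of other cell cycle genes and all 10763 genes tested. The curve of the 39 genes crosses 50% at 0.020, as does that of all genes tested; the other G1 and S regulators cross at −0.13 and the G2 and mitosis genes at 0.13, or 0.045 without wild type replicate 037.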

How the data were processed

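RNA from sorted bone marrow progenitors was measured on 8 arrays, 1 per sample, after Trizol extraction, amplification with a NuGEN WT-Ovation Pico kit and biotin labelling, per the labels' protocols. The authors deposited log2 values, 1 per probe set and array, made with RMA (background correction, normalization between arrays and summary of probes), per the submitters' processing notes; no version is named there. The table held 45101 probe sets, 64 of them controls. The platform annotation of 2016 gave 1 gene to 34945, several to 932 and none to 9160; symbols were updated through Entrez IDs for 34741, with a gene table of assembly GRCm38.p6. The brightest probe set stood for each of 18193 genes, and genes exceeding the array median on 4 or more arrays were tested, 10763 in all. The genotypes were compared with limma 3.58.1 in R 4.3.3, without covariates, and errors on differences are standard errors from that fit. On simulated data, with 50 changed genes per size, the test recovered 10%, 68%, 82% and 100% of log2 changes of 0.5, 1, 2 and 3. Changes of 0.5 were thus mostly missed. Single values were compared with exact permutation tests, whose smallest p is 0.0286. The members and lists were chosen with earlier results of these data known. Genes were given in full if they passed the test or had an unadjusted p under 0.05, had the smallest p or highest mean in their role, or had probe sets of both signs; from other lists, those called, then the 3 of smallest p. Any other gene named was picked with its values in view. The number of arrays limits the precision. Figures used matplotlib 3.10.9.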

Additional observations from a re-analysis of the deposited data

Results flagged for a closer look

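In 80 groups of 4 values (39 genes and their median in each genotype), 9 held an outlying value (11.2%). The rule is set to mark about 1 in 20 by chance. The share over all genes tested was not computed, and the groups come from the same 8 arrays. The count is therefore not read as a result about these genes. FLT3-ITD replicate 1 was the far sample for 4 genes. It was high for Orc1, at 8.44 against 7.48 to 7.55 in the other FLT3-ITD arrays, for Orc6, at 9.69 against 8.52 to 8.71, and for Gins2, at 10.79 against 9.71 to 9.85. It was low for Pold1, at 9.87 against 10.64 to 10.76. FLT3-ITD replicate 2 was low for Mcm5, at 11.16 against 11.44 to 11.47, and high for the cyclin gene Ccne1, at 8.37 against 7.24 to 7.25. FLT3-ITD replicate 037 was low for the primase gene Prim1, at 9.56 against 9.85 to 9.91. Wild type replicate 1 was high for Gins3, at 7.77 against 7.29 to 7.33 in the other wild type arrays, and for E2f1, at 8.55 against 8.26 to 8.29.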

How the results depend on the processing

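No member passed the limma test under any of the 18 alternatives run, and the median difference over members stayed between −0.037 and 0.046. The count of members at an unadjusted p under 0.05 was 1 with all arrays, where 9.58% of all genes tested reached it. It was 0 with the replicate block, with replicates 1 and 037 averaged and with the filter on all 8 arrays. That filter left 36 members and removed Orc1, so its 0 is no check on Orc1. The count was 2 with a variance trend and robust fit and 3 with every probe set tested on its own, and 0 to 2 when single samples were left out. It was 0 on leaving out wild type replicate 1 or 2 or FLT3-ITD replicate 2, 3 or 037, and 2 without FLT3-ITD replicate 1. Of all single probe sets 9.06% reached that p. The share over all genes was not computed for the other alternatives, so these counts are not read as changes in the members. Genes past the test over all tested numbered 65, against 22 with the replicate block, 25 with the filter on all 8 arrays and 31 without both samples tagged 037, an alternative chosen after seeing the data. Leaving out single samples gave 30 to 59, namely 33, 30 and 38 on leaving out wild type replicate 2, 3 or 037 and 35 and 40 on leaving out FLT3-ITD replicate 2 or 3. With genotype means removed, same-numbered samples correlated at 0.027, 0.037, 0.065 and 0.11, and differently numbered ones at −0.089 to 0.054. These values leave pairing by number unsettled. The genotypes were compared unpaired because the labels do not say that a number marks a pair. Mcm8 lost its call with the replicate block (adjusted p = 0.178), with replicates averaged (0.107), the stricter filter (0.0629), the variance trend (0.0707), with every probe set tested on its own (0.0774) and without the samples tagged 037 (0.181). Small differences that changed sign, none past the test, were, as means over probe sets, Ccne1 −0.027, E2f2 −0.15, E2f8 −0.094, Gins2 0.098, Mcm4 0.047, Mcm5 0.045, Prim1 −0.0026, Tyms 0.052, Uhrf1 0.074, Tpx2 0.055 and E2f3 0.0013. With replicates averaged they were Rfc3 −0.039, Tyms 0.016 and Uhrf1 0.031, with quantile normalization Rfc3 −0.0053, and without the samples tagged 037 Cdc6 0.088, Gins2 0.046, Gmnn −0.012 and Rfc3 −0.018. Leaving out single samples turned the sign of Ccne1 −0.22 to 0.16, Ccne2 −0.23 to 0.38, Cdc6 −0.33 to 0.054, E2f3 −0.12 to 0.092, Gins1 −0.021 to 0.20, Gins2 −0.29 to 0.074, Gins3 −0.34 to 0.044, Lig1 −0.31 to 0.064, Mcm4 −0.21 to 0.013, Pola1 −0.20 to 0.019, Pold1 −0.20 to 0.093, Prim1 −0.045 to 0.17, Rfc3 −0.12 to 0.14, Tyms −0.26 to 0.12 and Uhrf1 −0.085 to 0.044. The cause of these changes was not tested.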

Other observations

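A probe set shared by Tyms and the pseudogene Tyms-ps was left out of the comparison. It read 9.72, 9.87, 9.73 and 9.18 in wild type and 9.86, 10.00, 10.00 and 9.84 in FLT3-ITD, a difference of 0.30. Wild type replicate 037 was lowest, and FLT3-ITD replicates 1 and 037 lay below the top of the wild type range. Of the 9 probe sets below the filter, a dim one of Cdt1 read 2.79, 2.76, 2.64 and 2.87 in wild type and 3.01, 3.01, 2.90 and 3.19 in FLT3-ITD, without overlap. A dim one of Rrm1 read 5.19, 5.72, 5.83 and 5.90 and 5.20, 5.20, 5.37 and 4.31, a difference of −0.64. Both lay below the array medians, and the brighter probe sets of Rrm1 differed by −0.078 and −0.14.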
